A study of Homo sapiens with 14 samples.

Results

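Axon guidance genes encode the signals that steer growing neurites and the receptors that read them. The genes described here are the classical guidance ligands and receptors of human cells, taken from the count tables by the stem of the gene symbol: the semaphorins of classes 3 to 7, the plexins and neuropilins, the ephrins and Eph receptors, SLIT1 to SLIT3 with ROBO1 to ROBO4, the netrins, DCC and the UNC5 receptors. The stems found 71 symbols among the 19726 gene identifiers listed in either table, and 68 of the symbols were in both. In the OmoMYC experiment they covered 71 of 17810 identifiers, of which 66 passed the filter on low counts and were tested. In the parental experiment they covered 70 of 19143 identifiers, of which 63 were tested. A pair of these symbols, UNC50 and UNC5CL, share only the stem with the UNC5 receptors and belong to none of the guidance families. They are counted with the others so that no member is dropped.

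CHP-134 is an established neuroblastoma cell line with amplified MYCN. In the first experiment, CHP-134 cells carrying a lentiviral Tet-On construct expressed either EGFP, a fluorescent protein used as the control, or OmoMYC, a dominant-negative version of the part of MYC through which it dimerizes. Both engineered lines received 1 µg/ml doxycycline over 3 days in serum approved for tetracycline systems, and each group has 3 libraries. The EGFP and OmoMYC cells were separately transduced and drug-selected populations, so an effect of the insertion or selection cannot be told apart from that of the protein. In the second experiment, parental CHP-134 cells in ordinary serum received DMSO or 500 nM dTAG47 for 18 hours, with 4 libraries per group. The compound dTAG47 directs cereblon to proteins that carry a mutant FKBP12 tag, and the parental cells carry no such tag.

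These ligand systems share a logic. Secreted class 3 semaphorins mostly act through a neuropilin bound to a plexin, while the membrane-bound semaphorins of classes 4 to 7 bind plexins directly. Ephrins sit on the surface of one cell, the A class by a lipid anchor and the B class by a membrane span, and activate Eph receptor tyrosine kinases on its neighbour, with signals that can run in both directions. Slits are secreted repellents read by Robo receptors, and netrins attract through DCC or repel through UNC5 receptors. These systems guide sympathetic neurons and the neural crest cells from which neuroblastoma arises.

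The libraries held 28060817 to 38358128 counts in the OmoMYC experiment and 40861430 to 53451641 in the parental one. Replicates of one group differed by more than sampling noise in every pair, with a chi-square over genes of 2.64 to 42.1 times its degrees of freedom, so none was counted as a repeat of another. EGFP replicates 1 and 3 were the pair furthest apart. The neuroblastoma label held for most markers: 9 of 11 adrenergic markers were at 1 CPM or more in the EGFP libraries, with MYCN at a mean of 2713 CPM, while TH and DBH, which encode enzymes of catecholamine synthesis, were below 1 CPM. Here CPM stands for the usual library-normalized count, with library sizes scaled by TMM. Endothelial markers summed to at most 0.546 CPM in any library and immune markers to at most 1.97 CPM. Schwann cell markers summed to 5.81 to 8.58 CPM in EGFP, 6.48 to 7.66 CPM in OmoMYC, 8.05 to 8.69 CPM in DMSO and 10.5 to 13.0 CPM in dTAG47 libraries. Mesenchymal markers summed to 364 to 378 CPM in EGFP and 281 to 308 CPM in OmoMYC libraries, mainly from TWIST1. The part of the Schwann cell and mesenchymal signal in the results was not tested.

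Across the members, 27 of 66 were higher and 10 were lower in OmoMYC than in EGFP cells, and 29 did not pass the test. A gene is called higher or lower here when the Benjamini-Hochberg adjusted p-value (FDR) of edgeR's quasi-likelihood test is below 0.05. Among all 13803 genes tested, 53% were called, 27.3% higher and 25.7% lower. The members' share called, 56.1%, was near that background, with 40.9% higher and 15.2% lower. Calls past 1.5-fold came to 18 of 66 members higher and 6 lower. Of all 13803 genes, 1848 (13.4%) were higher and 1052 (7.62%) lower by that measure. The groups did not overlap for 43 of 66 members, beside 62.3% of all genes. The median log2 fold change was 0.20 for the members (the same with SEMA3C set to its bound, given with that gene, but 0.08 without EGFP replicate 1 and 0.28 without EGFP replicate 3) and 0.01 for all genes. The largest rise was that of SEMA3C, the largest rise from a level above 1 CPM that of EPHA7, and the largest fall that of SEMA5B. In bulk RNA, a smaller share of cells expressing a gene and less RNA per cell cannot be told apart.

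The split between rises and falls changed when base composition was taken into account. Over all tested genes, the median log2 fold change ran from -0.28 in the 20% of genes with the lowest exonic GC content to 0.33 in the 20% with the highest. The members were GC-rich, with a median of 56.3% against 48.2% for all genes, and 26 of the 65 with an annotated sequence fell in the highest bin. When a trend on GC content, exonic length and gene span was removed from each library, 22 members were higher and 26 lower, and their median stood at -0.06 on the log2 scale. The share of all tested genes called in that fit is not given here. Counts with the trend removed, here and by family or role below, therefore have no background beside them. Of the 27 members called higher, 21 remained so and 6 were no longer called. All 10 members called lower remained lower, and 16 that had not been called were then lower. Whether the gradient is of technical or biological origin was not tested, and directions that turned are given with the genes they concern.

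**Figure D1:**
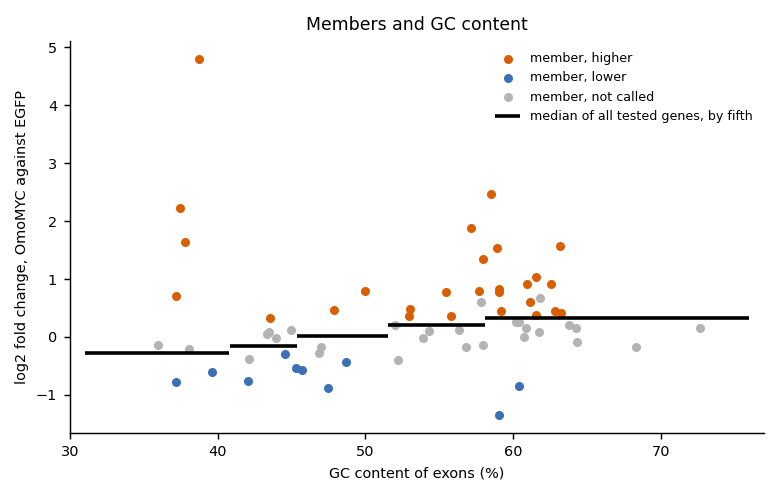
GC content of the exons (x axis, percent) against the log2 fold change of OmoMYC against EGFP (y axis) for the tested members with an annotated sequence (points, coloured by call), with the median of all tested genes in each of 5 equal bins of GC content as black lines. The black line climbs from -0.28 to 0.33, and SEMA3C and EPHA7 stand far above it at the low end of the GC axis.

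The promoters of these genes are of interest because MYC proteins bind the E-box CACGTG. RefSeq promoter windows (GRCh38.p14, 250 bases before to 50 after each start) were found for 61 of the 71 symbols, in 93 windows. CACGTG, a palindrome, was in 4 of the 93 windows (4.3%), against 7.26% of all 35116 windows. The non-canonical form CACGCG, searched on both strands, was in 13 windows (14%), against 11.4% of all. The windows with CACGTG belonged to EPHA8, SEMA3E, SEMA4D and SEMA6D, of which EPHA8 was called higher and SEMA6D lower. The windows below belong to the member that rose most, the one that rose most from above 1 CPM, the one that fell most, and EPHA8 as the called riser with an E-box. Each is printed 5′ to 3′ on the strand of the gene with any CACGTG in capitals. Where a gene had several windows, the one that opened the most GENCODE transcripts is shown.
SEMA3C: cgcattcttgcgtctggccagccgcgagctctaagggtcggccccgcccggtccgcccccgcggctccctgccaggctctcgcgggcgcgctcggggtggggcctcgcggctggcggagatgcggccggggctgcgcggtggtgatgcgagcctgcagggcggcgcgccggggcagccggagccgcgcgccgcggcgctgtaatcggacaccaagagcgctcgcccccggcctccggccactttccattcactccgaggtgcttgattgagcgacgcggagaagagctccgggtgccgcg
EPHA7: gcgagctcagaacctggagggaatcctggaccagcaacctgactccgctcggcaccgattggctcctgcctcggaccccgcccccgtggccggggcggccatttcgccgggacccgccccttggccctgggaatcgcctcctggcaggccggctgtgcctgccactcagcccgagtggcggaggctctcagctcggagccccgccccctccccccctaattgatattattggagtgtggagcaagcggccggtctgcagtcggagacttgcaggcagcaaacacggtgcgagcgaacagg
SEMA5B: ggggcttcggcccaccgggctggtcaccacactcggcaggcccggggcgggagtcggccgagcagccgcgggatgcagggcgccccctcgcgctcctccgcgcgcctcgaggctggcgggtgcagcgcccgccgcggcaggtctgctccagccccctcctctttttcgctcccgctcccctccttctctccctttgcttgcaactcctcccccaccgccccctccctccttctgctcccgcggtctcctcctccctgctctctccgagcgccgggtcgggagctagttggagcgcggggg
EPHA8: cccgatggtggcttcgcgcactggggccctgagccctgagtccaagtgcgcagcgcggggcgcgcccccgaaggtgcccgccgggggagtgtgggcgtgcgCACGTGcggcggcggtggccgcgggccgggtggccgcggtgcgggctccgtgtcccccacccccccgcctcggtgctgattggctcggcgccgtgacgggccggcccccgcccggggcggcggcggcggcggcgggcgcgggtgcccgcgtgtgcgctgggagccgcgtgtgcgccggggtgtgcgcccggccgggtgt
These windows lie at chr7:80919002-80919301 (minus strand), chr6:93419510-93419809 (minus strand), chr3:123027714-123028013 (minus strand) and chr1:22563239-22563538 (plus strand). They are GC-rich, at 75.7%, 68.3%, 74.7% and 82.7% GC. Only the EPHA8 window holds the E-box letters, with the first base 149 bases before the start. A match of letters describes the sequence and shows no binding.

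Semaphorins moved in both directions, with 10 of 20 tested genes higher, 5 lower and 5 not called, or 10 higher and 7 lower with the gene-feature trend removed. The class 3 genes encode secreted cues, most of them repellents. SEMA3C (ENSG00000075223.9, chr7:80371854-80551675 in GRCh37, minus strand), a guidance cue for cardiac neural crest cells, had 0, 3 and 3 counts in the EGFP libraries. In the OmoMYC libraries it reached 2.32, 2.21 and 1.48 CPM. That is at least 19.7-fold higher than the floor of 3 counts per library, and edgeR gave an FDR of 2.24e-05. The gene passed the filter on low counts only through its OmoMYC libraries, so the rise itself helped select it for the test. SEMA3C was similarly scarce in parental cells, at 0.0732 to 0.216 CPM with DMSO and 0.0398 to 0.165 CPM with dTAG47. SEMA3G, another secreted class 3 gene, stood at 0.158, 0.287 and 0.138 CPM in EGFP and 1.19, 1.01 and 1.05 CPM in OmoMYC libraries. SEMA3A, the founding growth-cone repellent, was more abundant and rose from 23.6, 19.3 and 18.7 CPM to 33.7, 35.3 and 31.5 CPM, a log2 fold change of 0.71 ± 0.10 (SE, FDR 0.000281). SEMA3F rose by a log2 fold change of 0.44 ± 0.13 (FDR 0.0155), a call lost when the gene-feature trend was removed (0.07, FDR 0.616).

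SEMA3D was the class 3 gene that fell. Its EGFP libraries read 16.4, 12 and 11.4 CPM and its OmoMYC libraries 7.40, 8.15 and 7.76 CPM. The OmoMYC range lay wholly below the EGFP range, and the log2 fold change was -0.77 ± 0.14 (FDR 0.00120). SEMA3E, whose product binds PLXND1 without a neuropilin, was at 1.38 ± 0.20 CPM in EGFP and 1.18 ± 0.17 CPM in OmoMYC cells (SD, n = 3) and was not called. SEMA3B was listed in the OmoMYC table under an identifier without a match in the annotation used here, at 0 to 0.592 CPM. SEMA3B, SEMA3C, SEMA3G and ROBO4 passed the filter on low counts only through the OmoMYC libraries, and DCC only through the EGFP libraries. Without these 5, 24 of 61 members were higher and 10 lower, with a median log2 fold change of 0.16.

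Class 4 semaphorins, membrane proteins that bind B-type plexins, leaned upward. Of 6 tested genes, 4 were higher and none lower, and all 6 fold changes were above 0, but with the gene-feature trend removed SEMA4A and SEMA4D lay below 0 and SEMA4D was called lower. SEMA4C, with SEMA6D among the most abundant semaphorins per kilobase in EGFP cells (12.9 ± 2.14 and 11.4 ± 0.56 CPM per kilobase of the canonical transcript, with the order turned over the union of exons), measured 39.9, 45.9 and 55.4 CPM in EGFP and 61.7, 62.9 and 68.7 CPM in OmoMYC libraries. The groups did not overlap, and the log2 fold change was 0.45 ± 0.11 (FDR 0.00618). SEMA4G and SEMA4B rose more, by log2 fold changes of 0.80 ± 0.11 and 0.78 ± 0.13. SEMA4F, with 0.48 ± 0.09, completed the called genes of the class. For SEMA4G, 22.9% of the exonic bases overlap MRPL43 on the other strand, so reads of the pair may be mixed if strand was not used in counting.

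Both class 5 semaphorins fell. SEMA5B (ENSG00000082684.10, chr3:122627929-122747452 in GRCh37, minus strand), a transmembrane protein with thrombospondin repeats, had the largest fall of any member. It measured 11.4, 13.0 and 14.3 CPM in EGFP libraries and 4.54, 4.98 and 5.69 CPM in OmoMYC libraries. All 3 OmoMYC libraries lay well below the EGFP range, with a log2 fold change of -1.34 ± 0.13 (FDR 1.68e-05). SEMA5A, its close relative, went from 11.7, 10.0 and 11.4 CPM to 6.07, 8.20 and 8.03 CPM, also without overlap. Its log2 fold change was -0.56 ± 0.13 (FDR 0.00447).

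The class 6 semaphorins, membrane proteins that bind A-type plexins, parted ways. SEMA6C (ENSG00000143434.11, chr1:151104161-151119107 in GRCh37) measured 9.97, 11.3 and 14 CPM in EGFP and 34.5, 33.4 and 37.4 CPM in OmoMYC libraries. Every OmoMYC library lay far above the highest EGFP library, and the log2 fold change was 1.58 ± 0.12 (FDR 3.50e-06). SEMA6A moved the other way, from 63.0, 63.0 and 62.1 CPM to 45.1, 41.8 and 42.9 CPM, a log2 fold change of -0.54 ± 0.07 (FDR 0.000146). SEMA6D also fell, by 0.30 ± 0.07 on the log2 scale, from a level of 67.3 ± 3.28 CPM. SEMA6B was not called (-0.17 ± 0.13), but was lower with the gene-feature trend removed (-0.55, FDR 7.10e-06). SEMA7A, the lipid-anchored class 7 member, rose by a log2 fold change of 0.60 ± 0.12 (FDR 0.00177).

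**Figure D2:**
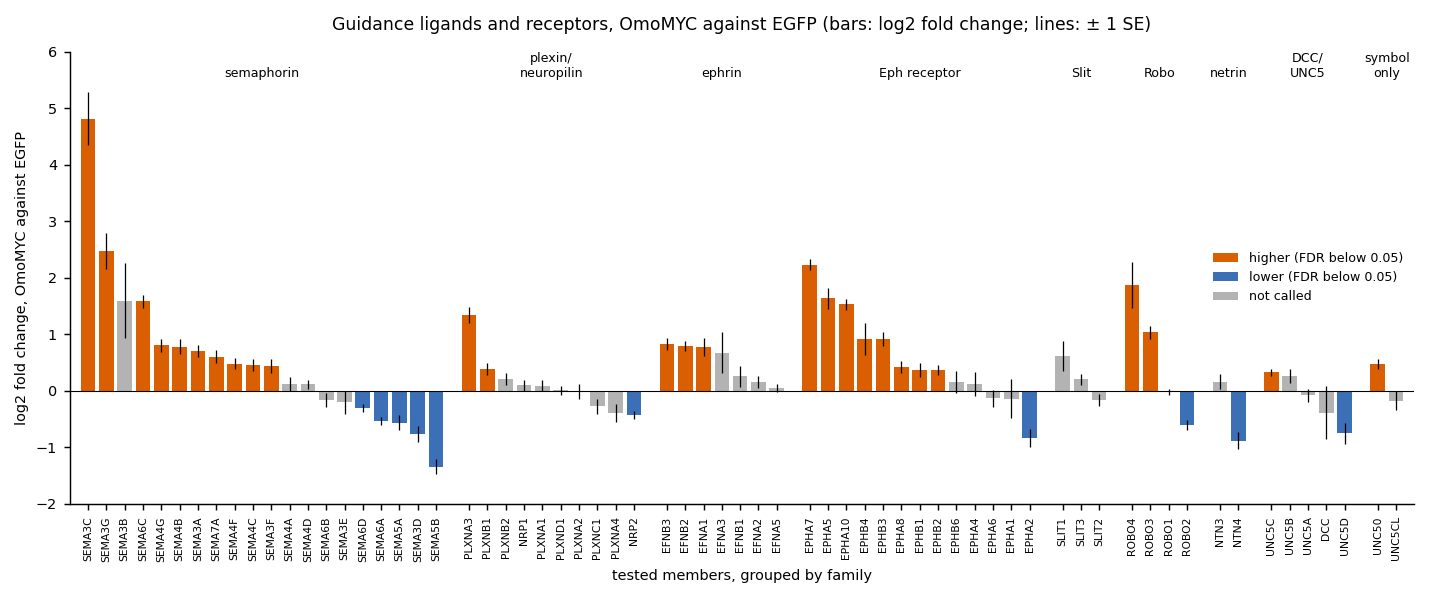
Log2 fold change of OmoMYC against EGFP (y axis; bars, with lines of 1 SE) for the 66 tested members (x axis), grouped by family and coloured by call. SEMA3C, whose fitted 4.81 stands over a control group at the floor of 3 counts (at least 19.7-fold), and EPHA7 at 2.23 head their families, SEMA5B at -1.34 has the deepest fall, and all 7 ephrins lie above 0.

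The semaphorin receptors comprise the plexins and neuropilins, and of 10 tested 2 were higher, 1 lower and 7 were not called. The most abundant per kilobase in EGFP cells were PLXNB2, PLXND1 and PLXNA1, at 35, 32.5 and 25.6 CPM per kilobase of transcript. PLXNB2, a receptor of class 4 semaphorins, measured 188, 230 and 255 CPM in EGFP and 254, 241 and 281 CPM in OmoMYC libraries. These groups overlapped, and the log2 fold change was 0.20 ± 0.11 (FDR 0.126), or -0.20 (FDR 7.85e-05) with the gene-feature trend removed. PLXND1 gave 0.00 ± 0.08 and PLXNA1 0.09 ± 0.10 on the log2 scale, and both were called lower with the trend removed (-0.39 and -0.33). PLXNB1 rose by 0.38 ± 0.11 (FDR 0.0146), and stood at -0.02 (FDR 0.843) with the trend removed. The family median went from 0.05 to -0.31, with 1 higher and 7 lower among the 10 when the trend was removed.

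PLXNA3, a receptor used with neuropilins by class 3 semaphorins, had the largest rise among the receptors of this family. Its counts came to 7.63, 7.31 and 9.85 CPM in EGFP and 19.5, 18.7 and 24.5 CPM in OmoMYC libraries (log2 fold change 1.34 ± 0.14, FDR 3.89e-05). The level itself is uncertain. PLXNA3 is listed under 2 identifiers in the OmoMYC table, and the identifier shared with the parental table stood at 8.26 CPM in EGFP cells against 71.3 CPM in DMSO cells. Symbols listed more than once in the OmoMYC table had a median log2 ratio of EGFP to DMSO of -6.72 over 180 identifiers, against 0.08 over 10266 others. EPHB6 was listed the same way, at 4.16 CPM in EGFP and 27.2 CPM in DMSO cells. PLXNA2, listed once, also differed between the tables, at 8.13 and 45.4 CPM.

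The neuropilins, co-receptors of the class 3 semaphorins, differed from each other. NRP2 fell from 37.9, 38 and 39.7 CPM to 29.6, 27.3 and 28.9 CPM. Its groups stood clear of each other, with a log2 fold change of -0.43 ± 0.08 (FDR 0.000920). NRP1 was at 12.7 ± 0.30 CPM in EGFP and 13.5 ± 0.98 CPM in OmoMYC cells (SD, n = 3) and was not called (0.09 ± 0.09).

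Ephrins were called in one direction, with 3 of 7 higher and none lower, and all 7 fold changes lay above 0, but with the gene-feature trend removed EFNA2 (-0.14, FDR 0.0259) and EFNB1 (-0.02) lay below 0. EFNB3 (ENSG00000108947.4, chr17:7608520-7614690 in GRCh37), a transmembrane ephrin of neural tissue, measured 16.5, 18.0 and 21.8 CPM in EGFP libraries and 33.0, 32.1 and 34.8 CPM in OmoMYC libraries. The groups lay far apart, with a log2 fold change of 0.83 ± 0.11 (FDR 0.000128). EFNB2, the ligand of EPHB4, rose from 33.8 ± 2.83 to 58.5 ± 1.77 CPM (SD, n = 3; log2 fold change 0.79 ± 0.08), although 36.4% of its exonic bases overlap an antisense transcript. EFNA1 rose from 2.17 to 3.71 CPM in the mean (0.77 ± 0.16). EFNA2, by its mean the most abundant ephrin per kilobase in EGFP cells, was at 32.8, 39.3 and 44.8 CPM in EGFP and 43.2, 41.6 and 45.6 CPM in OmoMYC libraries, with overlap. EFNA5, next in level, hardly differed, at 74.7 ± 2.13 and 77 ± 3.07 CPM. As shares of the ephrin level per kilobase, EFNA2 (31.2% to 35.4%) and EFNA5 (26.5% to 33.0%) overlapped in EGFP cells. In DMSO cells EFNA5 led, with 44.7% against 25.9% for EFNA2. Summed per kilobase, the ephrins came to 47.3 ± 4.56 CPM per kilobase in EGFP and 60.9 ± 1.56 in OmoMYC cells.

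The Eph receptors held the largest rises from levels above 1 CPM. Of 13 tested, 8 were higher, 1 was lower and 4 were not called. With the gene-feature trend removed, 4 were higher and 1 lower, and the family median went from 0.37 to 0.03. EPHA7 (ENSG00000135333.9, chr6:93949738-94129405 in GRCh37, minus strand), a kinase receptor of A-class ephrins in the developing brain, measured 14.9, 12.5 and 12.6 CPM in EGFP libraries and 64.4, 64.1 and 59.7 CPM in OmoMYC libraries. It was 4.70-fold higher, with a log2 fold change of 2.23 ± 0.09 (FDR 3.25e-08), and all OmoMYC libraries lay far above the EGFP range. EPHA10, whose kinase domain is thought to be inactive, rose from 8.39, 8.85 and 9.78 CPM to 24.1, 26.5 and 27.3 CPM (1.53 ± 0.10, FDR 9.59e-07). EPHA5, a neuronal A-class receptor, rose at a lower level, from 1.74, 1.58 and 1.21 CPM to 5.32, 4.8 and 3.95 CPM (1.63 ± 0.18, FDR 5.32e-05). The EPHB6 level is uncertain here, as given with PLXNA3, and by these counts EPHA8 had the highest level per kilobase in EGFP cells. It read 17.2, 21.5 and 22.5 CPM there and 27.4, 26.3 and 27.7 CPM in OmoMYC libraries, a log2 fold change of 0.41 ± 0.10 (FDR 0.00725) that came to 0.03 (FDR 0.661) with the gene-feature trend removed.

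EPHA2 was the only Eph receptor called lower. This A-class receptor, well known from epithelial tumors, measured 6.25, 6.59 and 8.85 CPM in EGFP and 3.62, 4.0 and 4.47 CPM in OmoMYC libraries. The ranges did not overlap, and the log2 fold change was -0.84 ± 0.16 (FDR 0.00133). Of the B class, 4 of 5 were called higher and none lower. EPHB3 rose from 15.2 ± 2.38 to 28.8 ± 3.10 CPM (SD, n = 3; 0.92 ± 0.12, FDR 0.000183). EPHB4, the receptor of ephrin-B2, was at 0.757, 0.895 and 0.861 CPM in EGFP and 1.13, 1.38 and 2.27 CPM in OmoMYC libraries (0.92 ± 0.29, FDR 0.0197). The call for EPHB4 was lost without EGFP replicate 2 and without OmoMYC replicate 3, with an FDR of up to 0.0929. EPHB1 and EPHB2 rose by 0.37 ± 0.13 and 0.36 ± 0.09, and both fell slightly below 0 with the trend removed, when EPHB3 alone of the B class was called. EPHB1 also lost its call without any one of 5 of the 6 libraries. EPHA1, EPHA4, EPHA6 and EPHB6 were not called with or without the trend, which turned EPHB6 from 0.16 to -0.18, and EPHA3 had at most 3 counts in any EGFP library and was not tested.

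The order of the Eph receptors changed with these rises. Per kilobase of transcript, EPHA7 made up 10.8% ± 2.21 of the summed Eph level in EGFP and 27.2% ± 1.83 in OmoMYC cells (SD, n = 3). EPHA10 went from 8.72% to 13.6% and EPHA2 from 9.64% to 2.92%. By CPM per kilobase, the order in EGFP cells was EPHA8, EPHB3, EPHB2, EPHA7, EPHA2 and EPHA10, and among these neighbours the pairs EPHA8 and EPHB3, EPHA7 and EPHA2, and EPHA2 and EPHA10 differed by less than the larger SD of the pair on that scale, although as shares of the family EPHA8 and EPHB3 did not overlap. In OmoMYC cells it was EPHA7, EPHB3, EPHA8, EPHA10 and EPHB2. The summed level of the family was 18.9 ± 2.08 CPM per kilobase in EGFP and 34.9 ± 1.02 in OmoMYC cells. The order, shares and sums are given without the gene-feature trend removed. They rest on the uncertain EPHB6 count, which made up 5.43% of the Eph level in EGFP and 37.2% in DMSO cells.

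**Figure D3:**
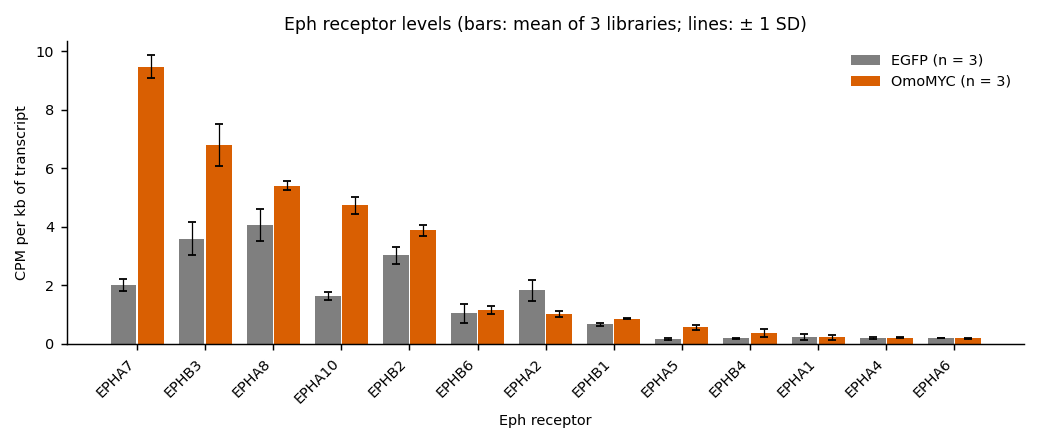
Level of each tested Eph receptor (x axis) in CPM per kilobase of transcript (y axis) in EGFP and OmoMYC cells, as means of 3 libraries with lines of 1 SD. EPHA7 goes from 2.01 to 9.47 and becomes the highest bar, EPHA10 from 1.64 to 4.74, while EPHA2 goes from 1.83 to 1.02. The level of EPHB6 is uncertain, as given in the text.

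Slits, the secreted repellents, were not called in either direction. SLIT3, which made up 90.02% of the Slit level per kilobase in EGFP cells, measured 107, 129 and 143 CPM in EGFP and 145, 142 and 150 CPM in OmoMYC libraries. These ranges overlapped slightly (0.21 ± 0.10, FDR 0.0952), and the value was -0.31 (FDR 0.000176) with the gene-feature trend removed. SLIT2 was at 10.8 ± 1.07 and 9.60 ± 0.56 CPM (-0.17 ± 0.11, or -0.35 with an FDR of 0.00274 with the trend removed). SLIT1 reached at most 1.09 CPM in any library and was not called (0.61 ± 0.26, FDR 0.0685).

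Among the Robo receptors, the dominant one hardly moved while the minor ones did. ROBO1 (ENSG00000169855.15, chr3:78646389-79817148 in GRCh37) read 561, 577 and 591 CPM in EGFP and 569, 566 and 566 CPM in OmoMYC libraries, and made up 95.4% ± 0.04 and 94.6% ± 0.12 of the Robo level per kilobase. Its log2 fold change was -0.02 ± 0.06 (FDR 0.733), but -0.37 (FDR 1.04e-06) with the gene-feature trend removed. ROBO2, which like ROBO1 reads slit repulsion, fell from 23.7, 23.1 and 22.8 CPM to 14.6, 15.5 and 15.6 CPM, without overlap (-0.61 ± 0.08, FDR 0.000166). ROBO3, known for letting commissural axons cross the midline, rose from 5.49, 6.12 and 6.89 CPM to 13.2, 12 and 12.7 CPM (1.04 ± 0.11, FDR 4.62e-05). ROBO4, a receptor known from endothelium, was called higher at levels below 1 CPM (1.87 ± 0.41, FDR 0.00320), where its EGFP libraries held at most 9 counts. It passed the filter on low counts only through its OmoMYC libraries, so the rise itself helped select it for the test.

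Of the netrins and their receptors, 2 of 7 tested were lower and 1 was higher. With the gene-feature trend removed, both tested netrins were lower, as were 3 of 5 receptors, with 1 higher. NTN3, which made up 90.3% of the netrin level per kilobase in EGFP cells, was at 22.2, 27.5 and 32.9 CPM in EGFP and 29.6, 27.8 and 35 CPM in OmoMYC libraries, with overlap (0.16 ± 0.14, or -0.14 and called lower with the trend removed). NTN4, a netrin of basement membranes that binds laminins, fell from 4.48, 4.41 and 5.27 CPM to 2.22, 2.73 and 2.70 CPM. The NTN4 groups were well apart, with a log2 fold change of -0.88 ± 0.15 (FDR 0.000636). NTN5 had at most 3 counts in any EGFP library and was not tested, and NTN1 was listed in the parental table only, at 0 in all 8 libraries.

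DCC, the attractive netrin receptor, was nearly silent in the engineered lines, at 0.566 ± 0.316 CPM in EGFP and 0.444 ± 0.237 CPM in OmoMYC cells (SD, n = 3). In DMSO cells, from the separately normalized table, DCC stood at 2.63 CPM. The repulsive receptors were abundant, and UNC5B made up 53.9% of the level of DCC and UNC5 receptors per kilobase in EGFP cells. UNC5B measured 183, 223 and 270 CPM in EGFP and 269, 257 and 284 CPM in OmoMYC libraries, with overlap (0.26 ± 0.12, FDR 0.0845, but -0.12 and called lower with the trend removed). UNC5C rose slightly but evenly, from 86.0, 83.2 and 83.1 CPM to 106, 104 and 106 CPM (0.32 ± 0.06, FDR 0.00192). UNC5D, low in these cells, fell from 2.87, 2.29 and 2.41 CPM to 1.36, 1.76 and 1.32 CPM (-0.76 ± 0.19, FDR 0.00601). UNC5A was not called (-0.08 ± 0.11), but was lower with the trend removed (-0.46). Of the genes that share only the symbol stem, UNC50 was higher (0.47 ± 0.09) and UNC5CL was not called, but UNC5CL was lower with the trend removed (-0.38, FDR 0.0440).

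By role, 13 of 32 tested ligands were higher and 6 lower, and 13 of 32 receptors were higher and 4 lower. With the gene-feature trend removed these counts were 13 and 12 for ligands and 8 and 13 for receptors. Leaving out each library in turn gave 23 to 32 members higher and 10 to 13 lower, and 33 of the 37 called members were called in every one of these fits. The members that lost a call this way were EPHB1, EPHB4, PLXNB1 and SEMA3F.

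**Figure D4:**
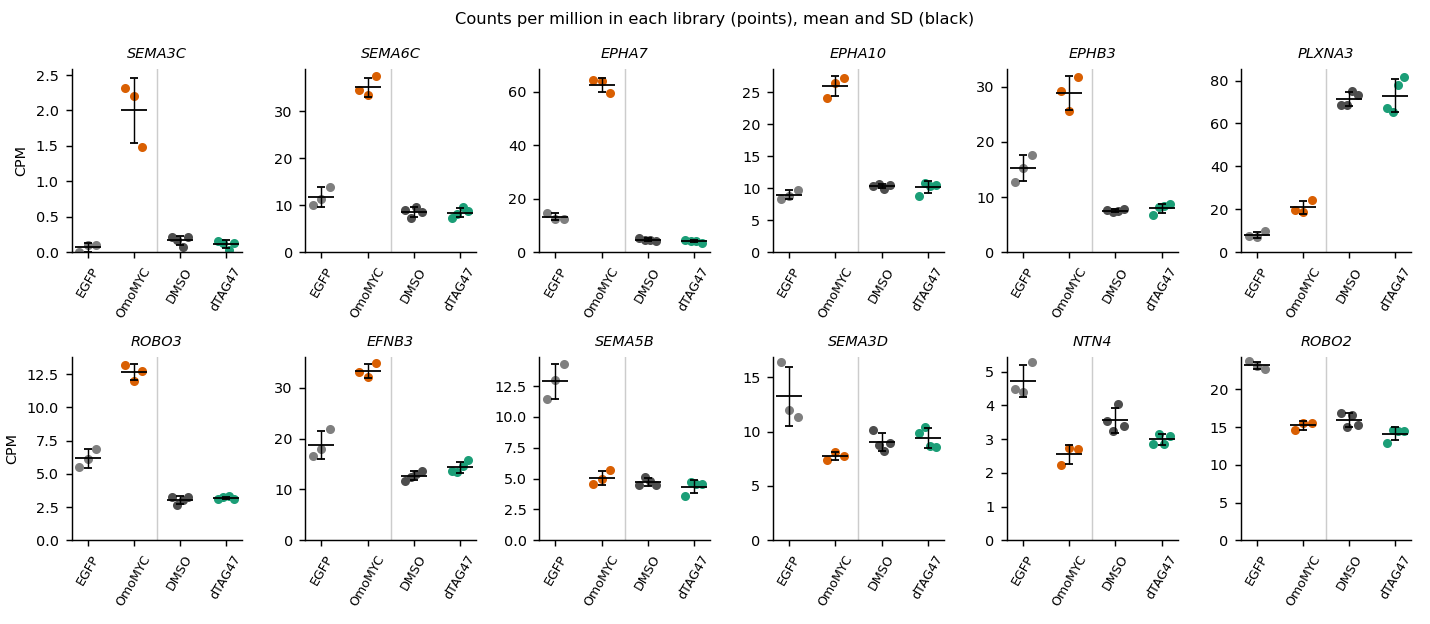
CPM (y axis) of 12 members in each library (points) of the 4 groups (x axis), with the mean and SD in black. The OmoMYC points lie above the EGFP points for the first 8 genes and below them for the last 4, while the DMSO and dTAG47 points, from a separately normalized table right of the grey line, lie close together.

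The wider guidance machinery was called at rates of 61.8% and 60.5% in the pair of lists below, beside the 53% of all genes. Of 55 tested entries for intracellular signalling downstream of these receptors, 21 were higher and 13 lower, and the median log2 fold change was 0.10. ABLIM3 and ABLIM1, actin-binding proteins homologous to a netrin-pathway gene of the worm, rose from 0.258 and 0.567 CPM to 8.93 and 4.74 CPM. MICAL2, of the MICAL oxidases that relay plexin signals to actin, rose from 8.97 to 22.8 CPM, and DPYSL2 (CRMP2), a mediator of semaphorin signals, from 743 to 1052 CPM. RHOA and RAC1, the small GTPases of growth-cone steering, were lower by 0.24 ± 0.06 and 0.22 ± 0.06 on the log2 scale. Of 38 tested guidance cues and receptors outside the families above, 15 were higher and 8 lower, with a median of 0.18. DSCAM, an adhesion receptor that also binds netrin, rose from 0.282 ± 0.065 to 37.7 ± 2.37 CPM, and RELN, the secreted cue of cortical layering, from 84.8 ± 1.86 to 293 ± 2.45 CPM (SD, n = 3). CHL1, an L1 family adhesion molecule that partners with neuropilin, rose from 13.0 to 60.6 CPM. BOC, a receptor for sonic hedgehog, fell from 6.88 to 3.27 CPM. These examples were chosen after their values were seen.

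In parental cells, 0 of 63 tested members were called between dTAG47 and DMSO. Of all 14470 genes tested, 0.159% were called, 0.117% higher and 0.0415% lower. At an unadjusted p below 0.05 there were 9 of 63 members, 6 higher and 3 lower, a larger share than the 1053 of 14470 genes (7.28%). DESeq2 and limma-voom also called 0 members. A fit with a factor for replicates 1 and 2 against 3 and 4 called 5 members higher, namely EFNA2, EFNB3, PLXNB2, PLXND1 and SLIT3, with log2 fold changes of 0.11 to 0.18. These cells also showed a GC gradient, with a median over all genes from -0.07 in the lowest bin to 0.05 in the highest. With the gene-feature trend removed and no such factor, these 5 stood at 0.06 to 0.12 (FDR 0.101 to 0.374) and were not called. The factor and the trend removal were not fitted together. The sample titles name no split between replicates 1 and 2 and replicates 3 and 4. Chi-square values per degree of freedom followed it in DMSO libraries (2.64 and 3.15 within, 8.70 to 11.3 across). They did not in dTAG47 libraries, where replicates 1 and 2 gave 8.17 and replicates 1 and 3 gave 5.68. The log2 fold changes of the members ran from -0.29 for PLXNB3 to 0.45 for EFNA3, with a median of 0.02. The groups did not overlap for 3 of 63 members, beside 3.34% of all genes.

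The members with the lowest p-values were EFNA2, ROBO2 and EFNB3. EFNA2 read 26.2, 26.1, 27.3 and 27.2 CPM with DMSO and 30.1, 27.9, 30.4 and 30.7 CPM with dTAG47. All dTAG47 libraries lay above all DMSO libraries, but the log2 fold change of 0.16 ± 0.05 had an FDR of 0.623, or 0.0239 with that factor. ROBO2 was at 16.9, 15.0, 16.6 and 15.3 CPM with DMSO and 12.9, 14.6, 14.5 and 14.5 CPM with dTAG47, also without overlap (-0.17 ± 0.06, FDR 0.673). EFNB3 measured 11.6, 12.5, 13.0 and 13.6 CPM and then 13.6, 13.5, 14.5 and 15.7 CPM, with overlap (0.18 ± 0.07, FDR 0.673, or 0.0498 with the factor). NTN4 was the third member without overlap, with a mean of 3.55 CPM after DMSO and 2.99 CPM after dTAG47, a log2 fold change of -0.24 ± 0.10.

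Members that moved with OmoMYC differed by less between the parental groups, and none of those named next was called. EPHA7 was at 4.31 to 5.42 CPM with DMSO and 3.53 to 4.63 CPM with dTAG47 (-0.19 ± 0.10, FDR 0.677). SEMA5B was at 4.48 to 5.14 and 3.62 to 4.72 CPM, and SEMA6C at 7.20 to 9.64 and 7.24 to 9.66 CPM. PLXNA3 gave 0.04 ± 0.07, ROBO3 0.06 ± 0.10, EPHA10 -0.03 ± 0.07 and EPHA2 -0.03 ± 0.10 on the log2 scale. The dominant receptor ROBO1 read 666 to 687 CPM with DMSO and 669 to 690 CPM with dTAG47. None of the 54 signalling genes and 37 other guidance genes tested was called in these cells by edgeR. Some members that fell with OmoMYC stood higher in EGFP than in DMSO cells. Mean CPM in EGFP, OmoMYC and DMSO cells was 12.9, 5.07 and 4.72 for SEMA5B and 7.23, 4.03 and 3.3 for EPHA2. For ROBO2 it was 23.2, 15.2 and 15.96. UNC5D, SEMA5A, SEMA3D and NTN4 were also higher in EGFP than in DMSO cells, while SEMA6A, SEMA6D and NRP2 were lower. The pattern was not particular to members that fell. Among those that rose, mean CPM in EGFP and DMSO cells was 13.3 and 4.79 for EPHA7 and 15.2 and 7.58 for EPHB3. EPHA10, which also rose, stood lower in EGFP cells, at 9.01 and 10.4 CPM. The EGFP and DMSO levels come from separately normalized tables. Whether the EGFP line or the OmoMYC line had departed from parental cells was not tested.

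The difference between the effect of OmoMYC and that of dTAG47 was not tested, since the experiments differ in cells, serum, time and table.

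**Figure D5:**
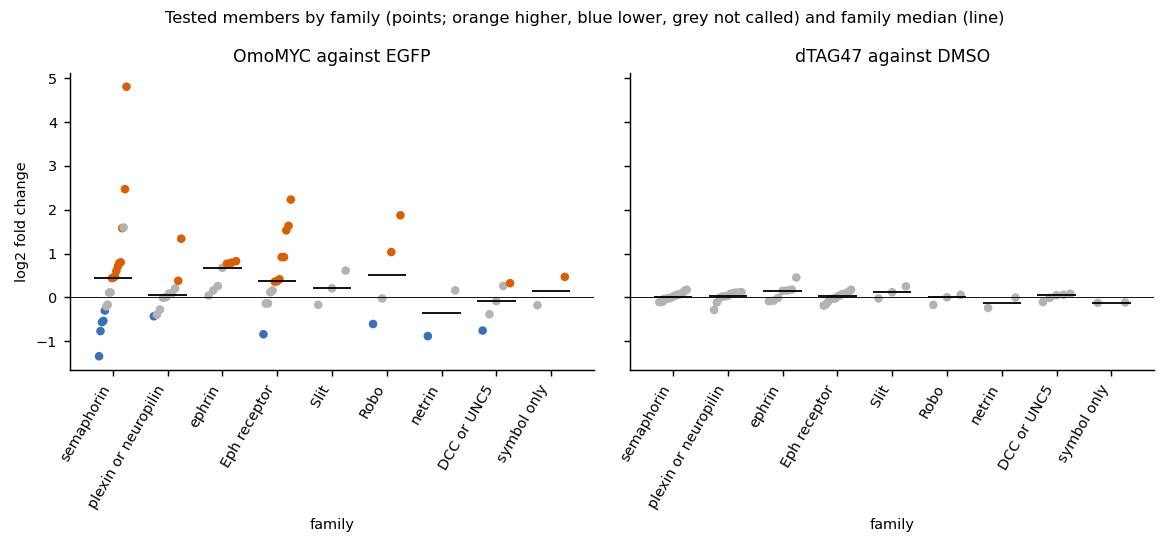
Log2 fold change (y axis) of each tested member (points) by family (x axis), for OmoMYC against EGFP on the left and dTAG47 against DMSO on the right, with the family median as a black line. The points spread from -1.34 to the fitted 4.81 of SEMA3C, whose controls were at the floor, on the left and from -0.29 to 0.45 on the right, and no point on the right is coloured as called.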

How the data were processed

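Total RNA was depleted of ribosomal RNA and sequenced by the authors, who used Cutadapt for trimming, STAR for alignment to hg19 and FeatureCounts for counting reads per gene. The deposited values are raw counts per gene in 2 tables, EGFP and OmoMYC (n = 3 each) and DMSO and dTAG47 (n = 4 each). The gene annotation, use of strand and handling of multi-mapped reads are not given in the sources used here. Counts were tested within each table with edgeR 4.0.16 (R 4.3.3; filterByExpr, TMM, robust quasi-likelihood, Benjamini-Hochberg over all tested genes, FDR below 0.05). The methods behind the study used DESeq2, run here (1.42.0) as an alternative with limma-voom (limma 3.58.1). Fold changes carry SE and levels SD. The p-values test the difference between groups against the spread between the libraries of a group. Counting precision is set by the library totals given above. An exact permutation test over single genes could not go below 0.1 (3 against 3) or 0.0286 (4 against 4).

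Length, GC content and gene span came from GENCODE models on GRCh37, which matched 95.2% and 97.2% of identifiers. The fits were run on simulated counts with few changed genes and no GC trend. That setting is unlike the OmoMYC data, so it does not test the scaling or the trend removal there. Alternatives covered the scaling, filter, tool, gene-feature trend, replicate block and each library left out. The members and gene lists were chosen with earlier results of these data known. Values per library are given for called members at 1 CPM or more whose groups did not overlap and that had the 8 largest rises or falls, or led their family, for the most abundant of each family, for the 3 lowest p-values with dTAG47, and for genes at 3 counts or fewer in one group. Other members with library values were added after these were seen. Protein sequences were not used here.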

Additional observations from a re-analysis of the deposited data

Results flagged for a closer look

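In 4 of 52 groups of 4 libraries examined among the named members, 1 library stood apart from the others by more of the group's range than Dixon's 95% critical value, a gap that chance gives in about 1 of 20 groups. UNC5D stood at 0.908 CPM in dTAG47 replicate 4 and at 1.15 to 1.17 CPM in the others. EPHA2 stood at 3.59 CPM in DMSO replicate 2 and at 3.18 to 3.24 CPM in the others. ROBO2 stood at 12.9 CPM in dTAG47 replicate 1 and at 14.5 to 14.6 CPM in the others. SEMA5B stood at 3.62 CPM in dTAG47 replicate 1 and at 4.54 to 4.72 CPM in the others.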

How the results depend on the processing

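With the trend on gene features removed, 26 members were lower with OmoMYC, as with the replicate block added, and members that had been called, or led their family in level, turned to below 0, with the same value in both settings but for PLXNB1: EFNA2 -0.14, EPHB1 -0.065, EPHB2 -0.063, NTN3 -0.14, PLXNB1 -0.016 (-0.017 with the block), PLXNB2 -0.20, SLIT3 -0.31 and UNC5B -0.12. EFNB1, EPHB6, PLXNA1, PLXND1, SEMA4A and SEMA4D, not called, also turned. The cause was not tested. In the other alternatives none of the called members or these leading members changed sign, but with a library left out DCC, EFNA5, EPHA1, EPHA4, EPHB6, PLXNA1, PLXNA2 and PLXND1 did. PLXND1 also changed sign by DESeq2 (-0.01) and with the choice of scaling (-0.02 to 0.02). Leaving out a library gave 23 to 32 members higher and 10 to 13 lower, with a median of 0.08 without EGFP replicate 1 and 0.28 without EGFP replicate 3. DESeq2 called 36 of the 37 members. Same-numbered libraries deviated together weakly (correlations 0.076, -0.0697 and 0.293 with OmoMYC, and 0.0093, 0.109, 0.101 and 0.159 in parental cells), so the numbers were not taken as pairs. The replicate block gave 31 members higher and 10 lower with OmoMYC. With dTAG47 it called 4 members higher (EFNA2, PLXNB2, PLXND1 and SLIT3, log2 fold changes 0.11 to 0.16), and a factor for replicates 1 and 2 against 3 and 4 called 5 (also EFNB3). None of these members was called with only the feature trend removed. Over all genes, dTAG47 gave 17 higher and 6 lower, and the numbers higher were 43 by DESeq2, 11 with library size only, 306 with the replicate block, 80 with the feature trend removed, 167 with trend and replicate block, 374 with that factor and 4 to 52 with a library left out. The numbers lower were 16 by DESeq2, 362 with the replicate block, 49 with the trend removed, 96 with trend and replicate block, 420 with the factor and 2 to 32 with a library left out. The depth limits genes below about 1 CPM most.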
